A study of Tuber melanosporum with 9 samples.

Results

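The genes described here are the 166 genes of the black truffle *Tuber melanosporum* whose RNA stood highest in the fruitbody (FB) over every mycelium sampled, out of 7496 genes counted in all 4 RNA libraries. They were chosen from the RNA counts themselves. A gene entered when it had at least 200 FB reads and when its FB level, in CPM (its reads per 1000000 reads on genes in that library) plus 1, was at least 8 times its level in each of the other libraries. Genes on 13 scaffolds were left out by this rule, which left 7194 candidates, and 2.31% of them passed. The FB-to-mycelium difference is therefore what defined the group and is given below as a description, with no test. They are called FB-high genes here.

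The FB sample was 1 mature truffle collected in the field. The free-living mycelium (FLM) was strain Mel28, the strain of the reference genome, grown on malt agar. The other mycelia were also of isolate Mel28, grown in synthetic liquid medium in the dark. The treated mycelium received 5-azacytidine (5-aza), a cytosine analogue that inhibits DNA methyltransferases, at 100 μM every 5 days for 45 days, and the untreated mycelium received water in its place. Both liquid cultures were labelled wild type, and no genotype was given for FB or FLM. Each condition had 1 RNA library and 1 bisulfite library, and a bisulfite library of ectomycorrhizal root tips (ECM) was also made. There was thus no replicate of any condition, so intervals on the reads or ratio of 1 gene cover counting error alone, and intervals on medians cover the spread between genes. The wild truffle and the Mel28 mycelia differ in strain as well as in tissue, and FLM and the liquid cultures differ in medium and in the extraction of their DNA, so these cannot be told apart.

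Truffles are ascomycete fungi that spend most of their life as hyphae, either free in soil or as a sheath on tree roots, and form their fruitbodies underground. The flesh of a fruitbody is built mostly of sterile hyphae, among which asci ripen their spores. DNA methylation in this fungus sits mainly on transposable elements (TEs). The gene table and the reference annotation used here carry identifiers and positions with no product names, so the FB-high genes are described by identifier, no function is given for them, and the fruitbody label could not be checked against marker genes.

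The RNA libraries held 23397373 reads on genes in FB, 23816308 in FLM, 21802480 in treated and 22446163 in untreated mycelium. A cytosine listed in the bisulfite files was read 20.1 times on average in FB and 19.9 times in FLM, but 8.64 times in treated, 7.35 times in untreated mycelium and 1.35 times in ECM. ECM listed 19268541 cytosines, against 52814490 in FB and 53500843 in FLM, and its average leaves out those not listed there. RNA integrity numbers were 7.0 for FB and 6.5 for FLM. With CPM scaling the median gene was 0.43 higher on the log2 scale in FB than in FLM, 0.46 lower in FB than in treated mycelium (-0.46) and 0.41 lower than in untreated mycelium (-0.41), so each ratio to FLM lies above, and each ratio to a liquid culture below, what a median-centred scaling would give. In bulk tissue, more cells of one kind and more RNA per cell cannot be told apart.

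The FB-high genes took 17.7% of all gene reads in FB, against 0.370% in FLM, 0.533% in treated and 0.570% in untreated mycelium. Their median level was 316 CPM in FB, with a 95% order-statistic interval over genes of 234 to 447, and 5.58 CPM in FLM, 9.04 in treated and 9.45 in untreated mycelium. Per kb of counted gene length, their median FB level was 233 CPM per kb, against 28.6 CPM per kb over all genes. The group held 4 of the 10 genes with most FB reads, 31 of the top 100 and 83 of the top 500. The smallest of a gene's ratios to the mycelia had a median of 16.3 and reached 795, with 46 genes at 32 or more and 10 genes at 128 or more.

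**Figure D1:**
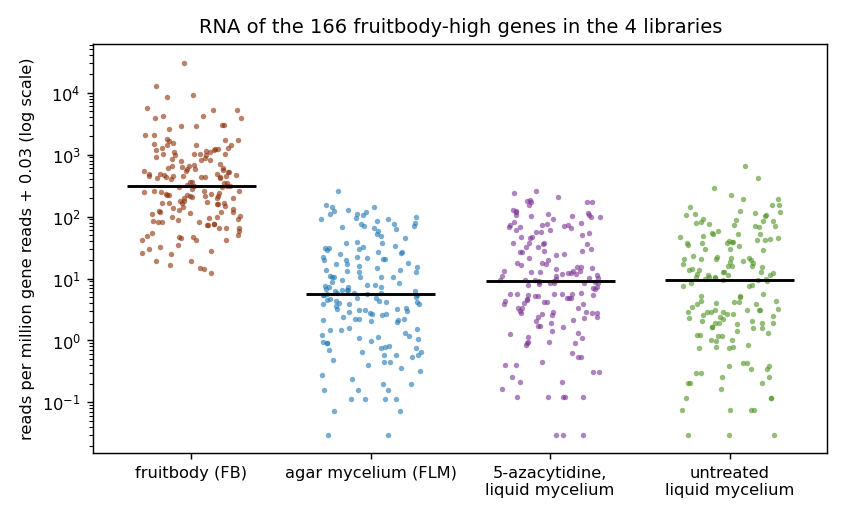
RNA level of each of the 166 FB-high genes (points) in FB, FLM, 5-aza-treated and untreated liquid mycelium, as CPM plus 0.03 on a log axis, with the median as a bar and sideways spread for legibility only. The FB medians and points lie above the mycelia because that difference chose the genes, while the mycelium levels run from 0 to 648 CPM.

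GSTUMT00004391001 had the largest smallest ratio. It lies on scaffold 11 from 1262769 to 1265545 in the v1.0 assembly, the coordinates being those of RefSeq. It had 218654 reads in FB, against 256 in FLM, 127 in treated and 69 in untreated mycelium, which is 9345 CPM in FB and 10.8, 5.83 and 3.07 CPM in those mycelia. The 69 reads of untreated mycelium carry an exact Poisson interval of 53.7 to 87.3 reads. In FB it was the gene with the sixth most reads.

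GSTUMT00007269001 and GSTUMT00007268001 came next and are neighbours on scaffold 34, from 420305 to 421608 and from 419934 to 420247, with 57 bp between them. The longer, GSTUMT00007269001, had 124057 FB reads, against 147 in FLM, 99 in treated and 68 in untreated mycelium. GSTUMT00007268001 had 27951 FB reads, against 34 in FLM, 20 in treated and 26 in untreated mycelium. The counting was not stated to use strand, so reads from genes this close may belong to 1 transcript, which was not tested.

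GSTUMT00004099001 (scaffold 10, 22032 to 23815) had the fewest mycelium reads of the leading genes, with 10984 reads in FB, against 7 in FLM, 0 in treated and 1 in untreated mycelium. With 3 reads taken as the limit of a count of 0, the treated library allows up to 0.138 CPM, and the two-sided exact Poisson interval ends at 3.69 reads. GSTUMT00011444001 on scaffold 84 had 19993 reads in FB, against 46 in FLM, 19 in treated and 6 in untreated mycelium. GSTUMT00001878001 on scaffold 298 had 8211 reads in FB, against 18 in FLM, 11 in treated and 4 in untreated mycelium. GSTUMT00004099001 was thus close to the limit of detection in the liquid cultures, while the FLM counts of the other genes lay above it.

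The remaining 4 of the 10 leading genes ranged widely in mycelium RNA. GSTUMT00009589001 (scaffold 59, 485537 to 487093) had more FB reads than any other gene, 716757, and still had 2603 reads in FLM, 2830 in treated and 2602 in untreated mycelium. Its FB level of 30630 CPM came to 22810 per kb. GSTUMT00005300001 had 14956 reads in FB, against 53 in FLM, 83 in treated and 64 in untreated mycelium. GSTUMT00002874001 had 33279 reads in FB, against 25 in FLM, 72 in treated and 220 in untreated mycelium, so its smallest ratio of 132 was set by untreated mycelium. GSTUMT00004141001 had 5883 reads in FB, against 23 in FLM, 2 in treated and 1 in untreated mycelium, and there FLM set the smallest ratio of 128.

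Some of the most abundant FB-high transcripts also had high mycelium levels, which the rule allowed only where the FB level was high. Others, such as GSTUMT00004391001 and GSTUMT00007269001 described above, were low in every mycelium. Of the 10 with most FB reads, GSTUMT00004366001 on scaffold 11 had 300088 reads in FB, against 3374 in FLM, 5678 in treated and 9564 in untreated mycelium. GSTUMT00000969001 on scaffold 238 had 201244 reads in FB, against 1652 in FLM, 4570 in treated and 14548 in untreated mycelium. The last value, 648 CPM, was the highest level of any FB-high gene in any mycelium. GSTUMT00005604001 had 131542 reads in FB, against 1835 in FLM, 1622 in treated and 3446 in untreated mycelium.

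GSTUMT00004472001 was one whose highest mycelium was FLM, with 5240 CPM in FB, against 261 in FLM, 188 in treated and 105 in untreated mycelium. GSTUMT00000546001 had 4260 CPM in FB, against 119 in FLM, 178 in treated and 221 in untreated mycelium. GSTUMT00002002001 had 4195 CPM in FB, against 51.5 in FLM, 104 in treated and 15.9 in untreated mycelium. GSTUMT00009297001 had 3965 CPM in FB, against 6.42 in FLM, 46.5 in treated and 21.7 in untreated mycelium. The order of the mycelia thus differed from gene to gene.

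Across the 166 genes, the highest mycelium was treated mycelium for 71, untreated mycelium for 51 and FLM for 44. In 17 genes every mycelium was below 1 CPM, and no gene was without a read in every mycelium. Levels above 10 CPM were found in FLM for 64 genes, in treated mycelium for 77 and in untreated mycelium for 80. The median over all genes was also lowest in FLM, at 33.3 CPM, against 65.1 in treated and 62.4 in untreated mycelium. These counts therefore depend on the scaling, and they were not set beside shares over all genes. Just inside the 8-fold limit lay GSTUMT00007815001 and GSTUMT00007620001, with smallest ratios of 8.02 and 8.01. Just outside lay GSTUMT00010279001 at 7.96 and GSTUMT00001952001 at 7.95.

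Membership depended in part on scaling, because the median gene differed between libraries. With edgeR's TMM factors 186 genes passed, of which 151 were among the 166, and with DESeq2 size factors 185 genes passed, of which 150 were among the 166.

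The next comparison asked how the FB-high genes differed between the mycelia, which the rule did not use. The rule did cap their level in each of these libraries, and both ratios below share the untreated library. Of the 166 genes, 138 had at least 50 reads over treated and untreated mycelium together. Of these, 19 (13.8%) were at least 2-fold higher in treated than in untreated mycelium, where 4.17% of the 7006 genes tested were, and 10 (7.25%) were at 0.5-fold or lower, where 2.6% of all genes were. The median ratio was 1.12, with an interval of 0.992 to 1.25, against 1.02 over all genes.

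The shares were also compared within ranges of read number. Among genes with 50 to 199 reads, 22.2% of 36 FB-high genes and 17% of 358 other genes were at least 2-fold higher in treated mycelium, and 0% of FB-high genes and 6.7% of other genes were at 0.5-fold or lower. Among genes with 200 to 999 reads, the shares were 16.7% of 48 FB-high genes and 7.86% of 929 other genes. At 0.5-fold or lower, the same read range held 14.6% of FB-high genes and 3.12% of other genes. From 1000 reads upward, 3 of 54 FB-high genes (5.56%) lay at 2-fold or more and 3 at 0.5-fold or less, against 2.49% and 2.13% of 5581 other genes. With 1 library per condition, none of these shares could be set against variation between cultures.

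Among the FB-high genes with at least 50 reads over both libraries, the highest treated-to-untreated ratios were seen in GSTUMT00003188001, GSTUMT00011650001 and GSTUMT00001784001. GSTUMT00003188001 (scaffold 162, 85754 to 87830) had 262 reads in treated and 22 in untreated mycelium, a ratio of 12.3 with an exact counting interval of 7.93 to 19.9. GSTUMT00011650001 had 288 reads in treated and 26 in untreated mycelium, a ratio of 11.4 (7.62 to 17.8). GSTUMT00001784001 had 187 reads in treated and 17 in untreated mycelium, a ratio of 11.3 (6.88 to 19.9). All 3 stayed far below FB, where GSTUMT00003188001 had 3474 reads, GSTUMT00011650001 had 4685 and GSTUMT00001784001 had 25520.

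With the same minimum of 50 reads, the lowest ratios were seen in GSTUMT00012200001, GSTUMT00000970001 and GSTUMT00010957001. GSTUMT00012200001 (scaffold 98, 258390 to 260970) had 216 reads in treated and 1064 in untreated mycelium, a ratio of 0.209 (0.180 to 0.242). GSTUMT00000970001 had 182 reads in treated and 681 in untreated mycelium, a ratio of 0.275 (0.232 to 0.325). It overlaps the abundant GSTUMT00000969001 by 1 bp, and that gene had 4570 reads in treated and 14548 in untreated mycelium, a ratio of 0.323. GSTUMT00010957001 had 122 reads in treated and 431 in untreated mycelium, a ratio of 0.291 (0.236 to 0.357). These 3 genes were also low in FLM, at 5.84, 4.79 and 2.64 CPM, so untreated liquid mycelium was the one mycelium in which they stood higher.

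Between FLM and untreated mycelium, 24 of 138 FB-high genes (17.4%) were at least 2-fold higher in FLM, where 10.5% of 6996 genes were, and 52 (37.7%) were at 0.5-fold or lower, where 43.4% of all genes were. This split was set by the scaling, since the median gene was 0.82 lower in FLM on the log2 scale (-0.82). With TMM factors 41 FB-high genes (29.7%) lay at 2-fold or more and 25 (18.1%) at 0.5-fold or less, against 20.6% and 19.7% of all genes. With DESeq2 size factors the counts were 43 (31.2%) and 24 (17.4%), against 21.7% and 18.7% of all genes.

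The 3 highest FLM-to-untreated ratios among genes with at least 50 reads over both libraries belonged to genes at or near 0 in the liquid cultures. GSTUMT00003223001 (scaffold 163, 75722 to 77694) had 754 reads in FLM and 0 in untreated mycelium, at least 237-fold higher in FLM when 3 reads are taken as the floor of a library. The exact counting interval of this ratio begins at 192. The gene had 0 reads in treated mycelium as well. Its neighbour GSTUMT00003224001, 55 bp away, had 128 reads in FLM and 1 in untreated mycelium, a ratio of 121 with a counting interval of 21.3 to 4802. GSTUMT00007290001 on scaffold 34 had 172 reads in FLM and 0 in untreated mycelium, at least 54-fold higher with the same floor, and its interval begins at 43.5. It too had 0 reads in treated mycelium. In FB the 3 genes had 437, 73.2 and 314 CPM.

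The lowest FLM-to-untreated ratios, again from 50 reads upward, were those of GSTUMT00005985001, with 17 reads in FLM and 354 in untreated mycelium (0.0453), GSTUMT00005973001, with 8 reads in FLM and 93 in untreated mycelium (0.0811), and GSTUMT00003181001, with 13 reads in FLM and 126 in untreated mycelium (0.0972). GSTUMT00005985001 and GSTUMT00005973001 are both on scaffold 22. Their bisulfite depth was below that of the average gene in every library of FB, FLM and liquid mycelium. For GSTUMT00005973001 it was 0.568 in FB, 0.555 in FLM and 0.285 in untreated mycelium. The GC content was 41.3% in GSTUMT00005985001 and 36.2% in GSTUMT00005973001, against a median of 49.6% over FB-high genes. Whether GC content bears on these depths was not tested.

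**Figure D2:**
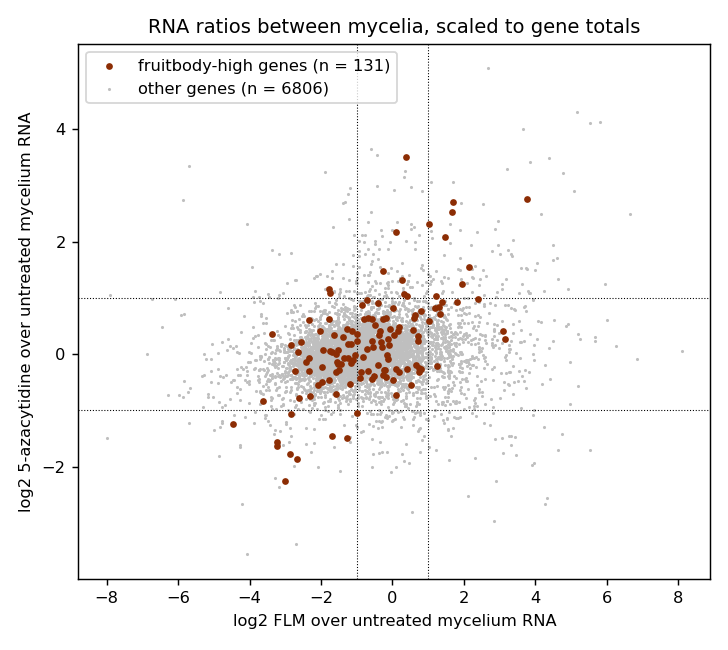
Log2 ratio of treated to untreated mycelium RNA against log2 ratio of FLM to untreated mycelium RNA for 131 FB-high genes (brown) and 6806 other genes (grey) with at least 50 reads for each ratio and a read in every mycelium. Dotted lines mark 2-fold and 0.5-fold. Both axes share the untreated library, and the FB-high genes extend to treated-to-untreated ratios of 12.3 and 0.209.

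Bisulfite reads show whether the DNA of a gene was present in a library as well as whether it was methylated. The depth of each gene, relative to the average over genes of the same library, was compared between FB and FLM. Its median FB-to-FLM ratio was 1.03 over 164 FB-high genes, with an interval of 1.02 to 1.04, and 1.02 over all genes. No FB-high gene had a ratio of 0.75 or less, where 3.94% of all genes did. That contrast was largely fixed by the rule, since most of those genes lie on the 13 scaffolds it left out, and among genes off these scaffolds 0.309% of 7114 were at 0.75 or less. In the other direction 1 gene, GSTUMT00002685001, had a ratio of 1.33 or more (1.34), where 0.27% of all genes did. The lowest was 0.787, in GSTUMT00004364001. Depth ratios of FB to FLM thus ran from 0.787 to 1.34 in genes chosen for RNA ratios of 8 or more. The median depth ratio of FB to untreated mycelium was 1.05 over FB-high genes and 1.03 over all genes. Whether DNA depth bears on the RNA levels was not tested.

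GSTUMT00007290001 stood apart in the liquid cultures. Its relative depth was 1.18 in FB and 0.996 in FLM, and 0 in both treated and untreated mycelium. It was the one FB-high gene with a depth of 0.1 or less in any mycelium. It lies at 577353 to 578711, inside a stretch of 8665 bp, from 576312 to 584976, whose 4124 cytosines had no read in either liquid culture. The same cytosines had on average 26.7 reads in FB and 23.3 in FLM, and 0.597 in the shallow ECM library. These averages include cytosines without a read, unlike the 1.35 reads per listed cytosine given above for ECM.

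This stretch was part of a longer one. From 540706 to 878664, which is 337959 bp and runs nearly to the end of the 879427 bp scaffold, all 16 annotated genes had a relative depth of at most 0.0439 in treated and 0.0769 in untreated mycelium. In FB the 16 genes lay between 0.71 and 1.18, and in FLM between 0.656 and 0.996. The gene before the stretch, GSTUMT00007284001, had depths of 0.896 in FB, 0.851 in FLM, 0.933 in treated and 1.05 in untreated mycelium. These were the only 16 of all 7420 genes with positions that had a depth of 0.5 or more in FB and FLM and of 0.1 or less in both liquid cultures, a search that was made after this gene had been seen.

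The RNA of the same 16 genes was at 0 reads in both treated and untreated mycelium, where they had 24298 reads in FB and 73903 in FLM. GSTUMT00007290001 was the one FB-high gene among them, with 7340 reads in FB and 172 in FLM. Its 0 RNA counts in the liquid cultures stand beside an absence of DNA reads there, whereas its 38.3-fold difference between FB and FLM, which set its smallest ratio, does not. GSTUMT00003223001, also without RNA in both liquid cultures, had a depth of 1.03 in each of them. The bisulfite reads of the liquid cultures were shorter than those of FB and FLM, and whether the stretch was missing from the DNA of these cultures or its reads were not mapped was not tested.

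**Figure D3:**
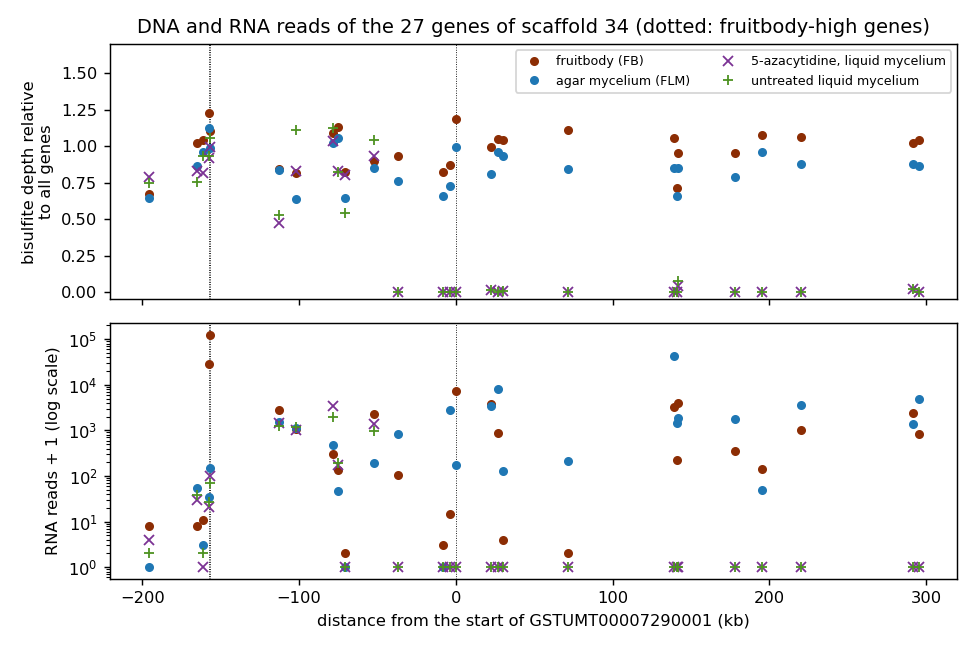
Bisulfite depth relative to all genes of a library (upper panel) and RNA reads plus 1 on a log axis (lower panel) for the 27 genes of scaffold 34, by distance in kb from the start of GSTUMT00007290001, in FB and FLM (filled circles), 5-aza-treated (crosses) and untreated liquid mycelium (plus signs). Dotted lines mark the FB-high genes. For the last 16 genes both liquid cultures sit at 0 RNA reads and at or near 0 depth, while FB lies between 0.71 and 1.18 and FLM between 0.656 and 0.996.

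Methylation was then compared, using CG sites with at least 4 reads and genes with at least 4 such sites. The bodies of the FB-high genes carried next to no methylation in any of these libraries. The median level was 0.462% in FB, with an interval of 0.433 to 0.496, and 0.263% in FLM, 0.322% in treated and 0.314% in untreated mycelium. Over all genes the medians were 0.485% in FB, 0.268% in FLM, 0.313% in treated and 0.335% in untreated mycelium. CHG and CHH sites of the FB-high genes had medians of 0.450% and 0.467% in FB, against 0.266% and 0.277% in FLM. Over all genes these were 0.473% and 0.472% in FB, against 0.261% and 0.265% in FLM. Levels within a library were thus nearly alike in every sequence context. The FB-to-FLM offset was there in each context, and over all genes as much as in the FB-high genes. Cytosines left unconverted by bisulfite also count as methylated. How much of these low levels, or of the offset, came from them was not tested.

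No FB-high gene had a body level of 10% or more in FB, out of 164 measured, and 0.554% of all genes did. None differed by 10 points or more between FB and FLM, where 0.0405% of all genes were higher in FB by that much and 0.108% lower. With shares this small over all genes, counts of 0 among 164 do not set the FB-high genes apart. The highest body level in FB was 1.61%, in GSTUMT00008804001, which had 20 sites there and stood at 0% in FLM. GSTUMT00004605001 followed with 0.963% in FB and 0.842% in FLM, then GSTUMT00005300001 with 0.953% in FB and 0.132% in FLM. GSTUMT00001092001 had 0.830% in FB and 0.257% in FLM, and GSTUMT00009506001 had 0.804% in FB and 0.276% in FLM. Every body level was therefore low in both, at 1.61% or less in FB and 1.56% or less in FLM.

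Levels in treated and untreated mycelium were close over these gene bodies. Each had 1 bisulfite library, so the intervals below cover the spread between genes and not that between cultures. Untreated medians of 0.314% at CG, 0.279% at CHG and 0.287% at CHH sites also left little room for a loss to show. Whether the treatment changed these levels was therefore not tested. The median difference of treated minus untreated was -0.0025 points at CG sites, with an interval of -0.0447 to 0.0443, and 0.0242 points at CHG (-0.0132 to 0.0603) and 0.0107 points at CHH sites (-0.0151 to 0.0350). Genes named above for their high or low RNA ratios were low too. GSTUMT00003188001 had a CG level of 0.390% in treated and 0.197% in untreated mycelium, GSTUMT00011650001 had 0.592% in treated and 0.211% in untreated mycelium, and GSTUMT00012200001 had 0.526% in treated and 0.442% in untreated mycelium.

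Flanks of 1 kb on either side, outside other genes, were low as well. The median was 0.497% in FB and 0.268% in FLM over 163 FB-high genes, against 0.564% and 0.280% over all genes. No flank reached 50% in FB, where 0.581% of all genes did. None differed by 10 points between FB and FLM, where 0.594% of all genes were higher in FB and 0.405% lower. These shares too are so small that counts of 0 among 163 do not set the FB-high genes apart. A flank level of 10% or more in FB was found for 5 FB-high genes (3.07%), against 5.27% of all genes.

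These 5 flanks all had a classified TE within 1 kb. GSTUMT00008545001 on scaffold 48 had the highest, 29.5% in FB, 25.1% in FLM, 29.6% in treated and 20.7% in untreated mycelium, with a Tc1/Mariner element 150 bp away. GSTUMT00002916001 had 22.5% in FB, 21.1% in FLM, 12.7% in treated and 13.0% in untreated mycelium. GSTUMT00006430001 had 15.2% in FB and 16.5% in FLM, GSTUMT00011820001 had 11.3% in FB and 13.3% in FLM, and GSTUMT00008844001 had 10.6% in FB and 11.9% in FLM. At sites covered in both, the flank level of FB minus that of FLM ranged from -1.99 to 3.93 points over the 163 genes.

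Flanks of FB-high genes with a TE within 1 kb had a median of 0.636% in FB (n = 30), and those without had 0.491% (n = 133) and did not exceed 2.996%. The level climbed with distance from the gene. In the outermost 500 bp of the 3 kb on the left side it averaged 6.86% in FB and 7.60% in FLM for FB-high genes, against 8.24% in FB and 8.36% in FLM for other genes. In the 500 bp next to the gene it was 0.701% in FB and 0.518% in FLM for FB-high genes, against 1.05% in FB and 0.725% in FLM for other genes. On the right side the gap was wider. There the outermost 500 bp averaged 5.52% in FB and 5.95% in FLM for FB-high genes. For other genes these levels were 8.14% in FB and 8.30% in FLM. These values are means over sites in steps of 500 bp. The flank medians are taken over genes and 1 kb, so the means cannot be set directly against them.

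**Figure D4:**
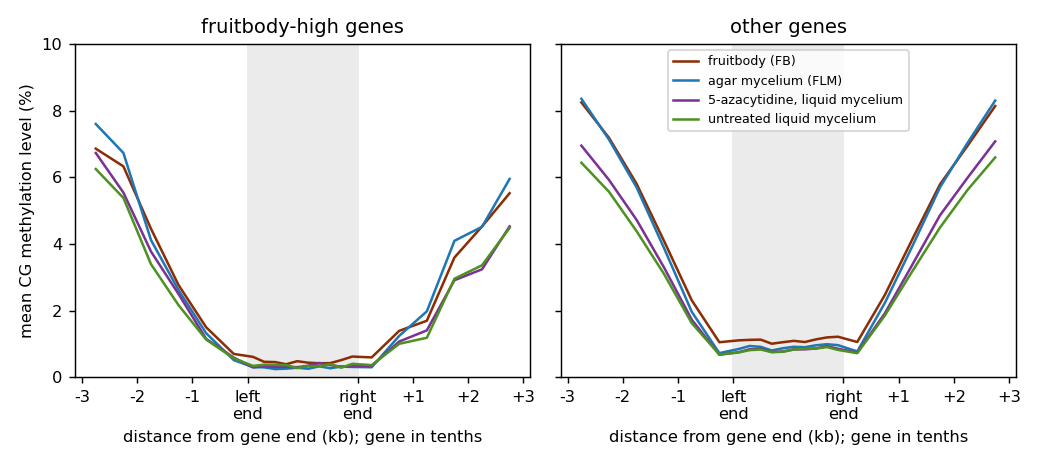
Mean CG methylation level in percent along FB-high genes (left) and all other genes (right) in FB, FLM, 5-aza-treated and untreated liquid mycelium, in 500 bp steps over 3 kb on each side and in 10 equal parts of the gene body (grey), with other genes masked in the flanks. Left and right are scaffold directions, since strand was not used. FB-high genes stay under 1% across the body in every library and reach 6.86% in FB and 7.60% in FLM at the left edge. Other genes also stay under 1% across the body in FLM and both liquid cultures, and reach 1.22% in FB.

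FB-high genes resembled other genes in build. Their counted length had a median of 1518 bases, against 1495 over all genes, their GC content 49.6% against 49.5%, and their CG density 102 sites per kb against 101. A classified TE lay within 1 kb of 30 of 164 FB-high genes (18.3%), where 15.8% of all genes had one, and the median distance to the nearest was 5134 bp against 5083 bp. A TE overlapped 5 of the genes (3.05%), where 2.45% of all genes were overlapped.

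The 39 classified TEs within 1 kb of an FB-high gene drew 2232 reads in FB, against 1064 in FLM, 407 in treated and 508 in untreated mycelium. Most of the FB reads came from a small number of elements that overlap or adjoin such a gene. A Copia fragment overlapping GSTUMT00004605001 had 660 reads in FB, against 23 in FLM, 44 in treated and 94 in untreated mycelium. A LINE fragment overlapping GSTUMT00001092001 had 466 reads in FB, against 2 in FLM, 4 in treated and 0 in untreated mycelium. Reads of an element and of the gene it overlaps cannot be assigned to either with certainty. A Copia fragment 365 bp from GSTUMT00001996001 went the other way, with 228 reads in FB, against 637 in FLM, 176 in treated and 206 in untreated mycelium.

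The FB-high genes were spread over 97 of the 324 scaffolds with counted genes, and the most on 1 scaffold was 6, on scaffold 11. Even so, they often lay side by side. Of 164 with positions, 38 (23.2%) had another FB-high gene as a direct neighbour, where 4.14% of all genes and 3.71% of other genes had an FB-high neighbour. They formed 18 runs, of which 2 had 3 genes and the rest 2.

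Of the 20 neighbouring pairs, 9 were less than 100 bp apart or overlapped, and whether these share a transcript or reads was not tested. With neighbours at least 500 bp away, 18 FB-high genes (11%) had one, against 2.89% of other genes. The widest gap was 12708 bp, between GSTUMT00000117001 and GSTUMT00000118001 on scaffold 104, and 7 pairs were at least 1000 bp apart.

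The run on scaffold 11 covers 443551 to 456287. GSTUMT00004275001 had 95.2 CPM in FB, against 4.58 in FLM, 1.65 in treated and 1.92 in untreated mycelium. GSTUMT00004276001 had 97.2 CPM in FB, against 2.14 in FLM, 2.25 in treated and 1.38 in untreated mycelium. GSTUMT00004277001, whose 5613 bases make it the longest FB-high gene, had 976 CPM in FB, against 10.5 in FLM, 26.7 in treated and 20.8 in untreated mycelium. The gene on its left, GSTUMT00004274001, did not share the pattern, with 225 CPM in FB, against 306 in FLM, 120 in treated and 29.3 in untreated mycelium. Nor did the gene on its right, GSTUMT00004279001, with 28.6 CPM in FB, against 120 in FLM, 104 in treated and 108 in untreated mycelium.

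The run on scaffold 130 covers 310812 to 313911. GSTUMT00002353001 had 28.3 CPM in FB, against 0.924 in FLM, 0.413 in treated and 0.356 in untreated mycelium. GSTUMT00002354001 had 454 reads in FB, against 3 in FLM, 2 in treated and 0 in untreated mycelium, and ends where GSTUMT00002355001 begins. GSTUMT00002355001 had 494 CPM in FB, against 1.18 in FLM, 2.94 in treated and 1.87 in untreated mycelium. The flanking GSTUMT00002352001 was abundant in FLM as well, with 2344 CPM in FB, against 3315 in FLM, 323 in treated and 405 in untreated mycelium.

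The remaining runs are pairs, and 3 of them hold genes of the leading 10. Besides the pair on scaffold 34, GSTUMT00011444001 on scaffold 84 has GSTUMT00011443001 6 bp away, with 20576 reads in FB, against 529 in FLM, 1301 in treated and 1176 in untreated mycelium. The FB levels of these neighbours, 855 and 879 CPM, were close, while in untreated mycelium they were 0.267 and 52.4 CPM. On scaffold 153, GSTUMT00002876001 lies 3442 bp from GSTUMT00002874001 and had 2917 CPM in FB, against 22.2 in FLM, 59.9 in treated and 38.8 in untreated mycelium.

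**Figure D5:**
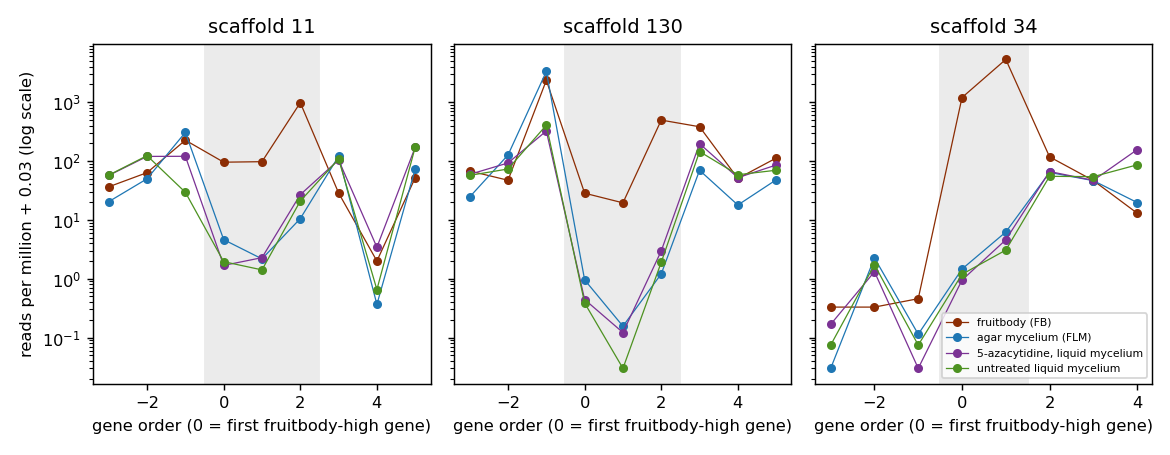
RNA level (CPM plus 0.03, log axis) of consecutive genes around 3 runs of FB-high genes (grey) on scaffolds 11, 130 and 34, in gene order, in FB, FLM, 5-aza-treated and untreated liquid mycelium. The FB values part from the mycelia inside each run, and at the genes next to the runs they do not, apart from smaller gaps such as that of GSTUMT00002356001 with 381 CPM in FB, against 69.4 in FLM, 197 in treated and 144 in untreated mycelium.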

How the data were processed

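RNA-seq counts on genes and TEs and bisulfite methylation calls were used, from 1 library per condition. The count tables hold raw read counts that the authors made from 50 nt single-end TruSeq reads, mapped with TopHat2 2.0.4, keeping unique alignments, and counted with HTSeq 0.5.4p3. The methylation fraction and the read counts per cytosine were deposited as BS Seeker calls on assembly v1.0. Deposited columns with RPKM, and with the authors' log2 ratios and p-values of treated against untreated mycelium, were not used.

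Positions came from RefSeq locus tags of ASM15164v1 (7420 of 7496 genes, 164 of 166 FB-high genes). Start-codon letters fell on an annotated gene end for 40.6% of genes, against 9.19% with a shift of 1 bp. Bisulfite positions of the liquid cultures were shifted by 1 bp to match FB, FLM and ECM. CPM was computed per gene total. Levels are means over sites with at least 4 reads, and 1 read for ECM. Ratio intervals are exact conditional binomial, count intervals exact Poisson and median intervals order statistics, all at 95%. Python 3.11.15, scipy 1.17.1, edgeR 4.0.16 and DESeq2 1.42.0 were used, the last 2 for scaling factors alone, since without replicates no count test could be made. On simulated data the rule found 100 of 100 genes raised 16-fold and 0 of 7296 unchanged ones, and 1918 of 2000 ratio intervals held the true value. The simulated counts varied by Poisson counting error alone around a shared profile. They therefore check the computation and cannot show how often the rule errs between real cultures.

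The FB-high genes, lists and thresholds were chosen with earlier results of these data known. Named genes were the 10 with the largest smallest ratio, the 10 with most FB reads, those nearest the limit, the 5 with most body methylation, the longest runs and the 3 highest and lowest of each mycelium ratio. Genes of other runs, flanks, TEs and depth were chosen after their values were seen. Lists by product name and protein family could not be formed from the annotation used here, and no sequences are printed.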

Additional observations from a re-analysis of the deposited data

How the results depend on the processing

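Of 68 values under other settings, 60 stayed within the limits set for a like value and 8 moved. Scaling moved the FLM-to-untreated counts: FB-high genes at 2-fold or more numbered 41 with edgeR TMM and 43 with DESeq2 size factors, against 24, and those at 0.5-fold or less 25 and 24, against 52. FB-high genes with a TE within 1 kb numbered 18 at 500 bp and 49 with unclassified repeats included, against 30. Shares over all genes are not given for these settings. The median FB-to-FLM bisulfite depth was 1.07 when scaled over all cytosines, against 1.03 over gene cytosines. FB-high genes with an FB-high neighbour numbered 18 when gaps under 500 bp were left out, against 38, an alternative chosen after seeing the data. Genes passing the 8-fold rule ranged from 130 with a pseudocount of 5 CPM to 186 with TMM. The counts of FB-high genes with a body level of at least 10% or a flank level of at least 50% in FB, or with a difference of 10 points between FB and FLM, were 0 under every setting run. As stated above, the shares over all genes were too small for these counts to set the FB-high genes apart. No paired analysis was possible because each condition had 1 library. Leaving out a replicate could not be done for the same reason, and the protein family alternatives were not run for want of sequences. Low counts limit the mycelium ratios, and the ECM library, at 1.35 reads per listed cytosine, supports no statement about single genes.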

Other observations

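GSTUMT00003188001, the FB-high gene with the highest treated-to-untreated RNA ratio among those with at least 50 reads, had flanks methylated at 4.46% in FB, against 4.33% in FLM, 0.536% in treated and 0.153% in untreated mycelium at CG sites, with a TE 637 bp away. These levels rest on 127 sites in FB, 129 in FLM, 120 in treated and 109 in untreated mycelium, which are not all the same, and at sites covered in both FB was 1.38 points above FLM. GSTUMT00004922001 had a flank level of 2.73% in FB, against 0.452% in FLM, 0% in treated and 0.151% in untreated mycelium, and GSTUMT00001878001 had 2.38% in FB, against 0.424% in FLM, 0.150% in treated and 0% in untreated mycelium. These genes were picked out after their values were seen, and each value rests on 1 library and on the sites covered there.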
